A study of Danio rerio with 15 samples.

Results

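Perfluorobutane sulfonic acid (PFBS) was compared with the unexposed control in whole zebrafish embryos. The 3 PFBS libraries and the 3 control libraries were chosen by their labels and make up 6 of the 15 libraries in the series. Every library held RNA of 10 pooled Tropical 5D Wildtype embryos, whose chorions had been removed before exposure. Treatment ran from 8 to 48 hours post fertilization (hpf) in a sealed plate without renewal, with PFBS at 47 uM or with 0 uM, and all groups received 0.5% methanol. Of the other 9 libraries, 3 each were exposed to 47 uM of perfluorobutane sulfonamide (FBSA), perfluoropentanoic acid (PFPeA) or a fluorotelomer sulfonic acid (42FTS) over the same hours. They entered the same statistical fit, so their spread within groups enters every p-value and interval given for PFBS against the control. Their values are named here only where PFBS is set beside them. Whether replicate pools were drawn from different clutches is not stated in the labels. A p-value here therefore reflects only how far these pools vary, which may be technical. Libraries were made from polyadenylated RNA. No internal dose was used here, and a bulk library cannot tell fewer cells of a type from less RNA per cell.

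PFBS is a short fluorinated chain that ends in a sulfonic acid, which carries a negative charge in water. Fluorinated acids of this family resemble fatty acids in outline. In mammals longer members bind fatty acid binding proteins and serum albumin, activate the nuclear receptor PPAR alpha and lower circulating thyroid hormone. Between the start and end of the exposure the zebrafish embryo forms its body axis, heart, blood, sensory organs and first neurons, and it feeds on yolk lipid throughout.

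Reads counted in genes ranged from 32195020 to 32367808 in PFBS and from 24552649 to 32630731 in the control. Control 3 had the lowest total and the largest share of unaligned reads, 9.92%, where the remaining 5 libraries had 6.33% to 6.55%. Principal component 1 of all 15 libraries carried 14.8% of the variance, and on it the PFBS libraries scored -16.7 to -13.0 and the control libraries -16.3 to -13.6, so these groups overlapped. On the next component Control 3 scored -42.4, apart from the other 5 libraries, which lay between -6.15 and 13.6. Of 17 markers of embryonic cell types, 14 had a level of at least 1 in every library, in CPM (reads of a gene scaled to a common library total). The exceptions were the muscle light chain gene mylpfa, the macrophage gene mpeg1.1 and the insulin gene ins. Nearly all reads of mylpfa stood in suffixed entries of the same symbol, and with these added it had 2454 to 3021 CPM. The header of the count table names a pair of PFBS columns alike, and these libraries are called PFBS a and PFBS b. The remaining PFBS library is called PFBS 2.

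No gene changed past the test between PFBS and the control. Of 23874 genes tested with edgeR's quasi-likelihood test and Benjamini-Hochberg adjustment, 0 had an adjusted p under 0.05 in either direction (0% called), and the smallest adjusted p was 0.864. At an unadjusted p under 0.05 stood 925 genes, or 3.87% of those tested, 445 of them higher in PFBS (1.86%) and 480 lower (2.01%). DESeq2, run on the same counts, called 6 genes, and limma voom called 0. The 3 PFBS libraries lay above all 3 control libraries in 1181 genes (4.95%) and below them in 1042 (4.36%). In the same fit and with the same controls, FBSA had 2274 called genes (9.53%), 1260 higher (5.28%) and 1014 lower (4.25%), while PFPeA had 0 and 42FTS 0.

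**Figure D1:**
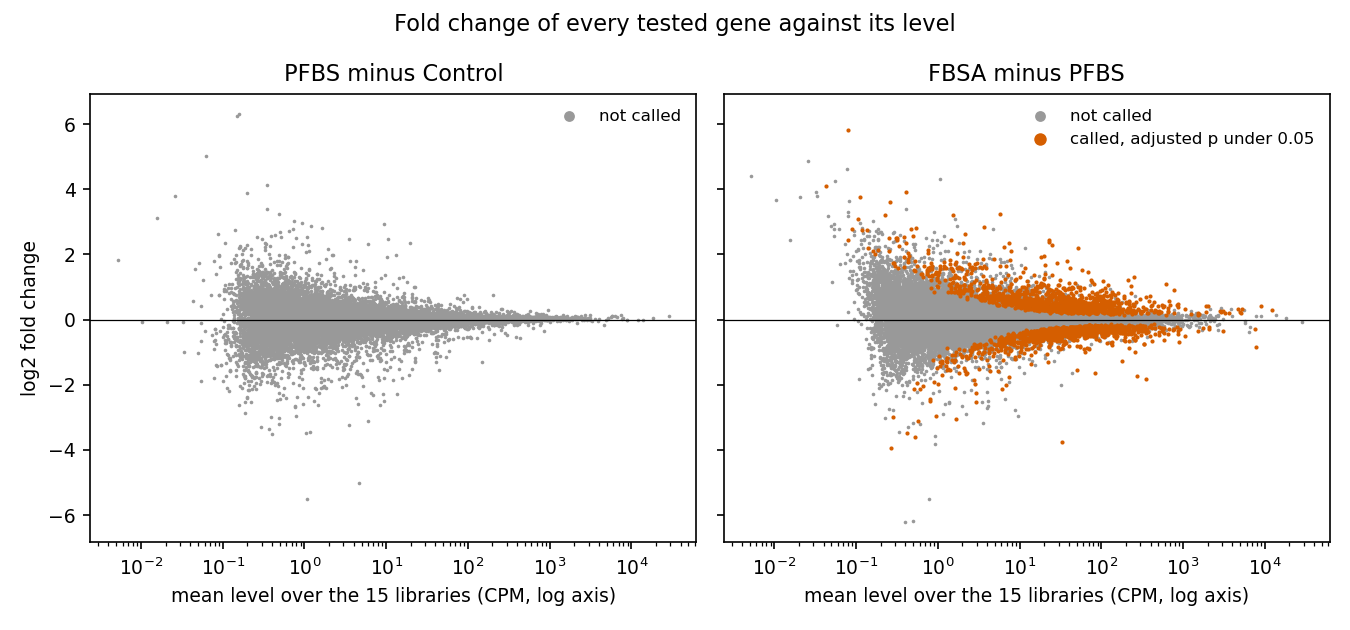
Log2 fold change of each tested gene (vertical axis) against its mean level in CPM (horizontal log axis), for PFBS minus Control on the left and FBSA minus PFBS on the right. In both panels the level is the mean over the 6 PFBS and control libraries, although the axis label names 15. Grey points were not called and orange points had an adjusted p under 0.05 by edgeR. No point is orange on the left, while 2423 are on the right.

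How closely the change of a gene was bounded depended on its level. Over all genes tested, the distance from the fitted log2 fold change to the edge of its 95% confidence interval (CI) had a median of 0.44. For 16429 genes (68.8%) the whole interval lay within a 2-fold change either way. That share was 99.0% among 1586 genes with a mean of 100 CPM or more, 96.5% between 10 and 100 CPM, 74.4% between 1 and 10 CPM and 5.82% among 5116 genes under 1 CPM. In 2192 genes (9.18%) the interval reached 2-fold on both sides, so these data cannot place those genes on either side of it. In 20 of the 23874 genes the whole interval lay beyond a 2-fold change, and 0 of these were called. The intervals are for single genes, so they do not give the size of change that the test adjusted over all genes would miss. The median absolute log2 fold change was 0.04 at 100 CPM or more and 0.40 under 1 CPM. A fitted change of at least 2-fold was seen in 887 genes, 399 higher and 488 lower. Of these, 72.3% had a mean under 1 CPM, against 21.4% of all tested genes, and 32.2% were suffixed entries, against 14.2%.

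The lower gene nearest to the threshold was insig1_1, an entry of the gene for an endoplasmic reticulum protein that holds back the sterol-regulated transcription factors when sterols are plentiful. It had 4.13, 7.16 and 11.7 CPM in Control 1, 2 and 3, and 1.05, 1.07 and 1.71 CPM in PFBS 2, a and b. The groups did not overlap, and Control 3 was the highest of the 6. The log2 fold change was -2.58 (95% CI -3.52 to -1.64), with an adjusted p of 0.864 by edgeR's quasi-likelihood test and of 7.66e-05 by DESeq2. This entry held 99.1% of the reads of the insig1 symbol, and with its copies the change was -2.58. The 9 libraries of the other compounds, set against the same controls, lay between 0.698 and 3.63 CPM, also below every control library.

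Enzymes of polyunsaturated fatty acid synthesis stood beside it. The desaturase gene fads2 had 7.495, 9.47 and 12.9 CPM in Control 1, 2 and 3 and 6.76, 7.10 and 7.13 CPM in PFBS 2, a and b. The PFBS libraries were nearly equal and all below the controls, with a log2 fold change of -0.51 (95% CI -0.95 to -0.06). Without Control 3, the highest library, it was -0.28. The elongase gene elovl2 had 4.47, 3.35 and 3.41 CPM in the controls and 2.73, 2.23 and 2.73 CPM in PFBS, again without overlap (log2 fold change -0.55, 95% CI -1.07 to -0.03). Without Control 1, the highest library, the elovl2 change was -0.40. Neither passed the test, with an adjusted p of 0.999 by edgeR. The libraries of the other compounds, set against the same controls, had 0.967 to 3.16 CPM of elovl2, also below every control library. For fads2, PFPeA had 4.32, 4.55 and 6.85 CPM and FBSA 3.34 to 4.82 CPM, below every control library. In 42FTS fads2 had 6.14 to 7.71 CPM, which overlapped with the controls. Of 23 tested genes of fatty acid synthesis and desaturation, 3 had an unadjusted p under 0.05 and were lower, as were 2.01% of all genes tested. The third was the elongase elovl7a, whose libraries overlapped and whose log2 fold change moved from -0.81 to -0.18 without Control 1. With 1 library left out, the lower members numbered 2 without Control 1 or Control 3 and 3 without Control 2. They numbered 1 without PFBS 2 or PFBS a and 0 without PFBS b. With suffixed entries added to their stems they numbered 2. The list's median log2 fold change was -0.08, against 0.00 over all genes tested, and it was -0.15 for FBSA against the same controls.

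Genes of sterol biosynthesis, the pathway that insig1 restrains, had the lowest median of the 41 gene lists with all libraries. Without Control 3 the median moved from -0.17 to -0.06 and was no longer the lowest. Against the same controls the list's median was -0.42 in PFPeA, -0.19 in 42FTS and -0.16 in FBSA. A median below 0 was thus not particular to PFBS. Over 27 tested members the median log2 fold change was -0.17, with 0 members called and 1 at an unadjusted p under 0.05. That member was srebf2, the transcription factor gene of the pathway, with 208, 222 and 242 CPM in the controls and 197, 187 and 212 CPM in PFBS. The groups overlapped, and without Control 3 its log2 fold change moved from -0.17 to -0.11. The isomerase gene idi1 had 73.2, 76.2 and 72.9 CPM in PFBS 2, a and b against 80.1 to 88.6 CPM in the controls. The rate-limiting reductase gene hmgcra had a log2 fold change of -0.32 (95% CI -0.81 to 0.17) and the epoxidase gene sqlea -0.14 (95% CI -0.47 to 0.19), both with overlapping libraries. With the suffixed entries of its symbol added, hmgcra had -0.15 (95% CI -0.66 to 0.35). The mean log2 level of the list, taken relative to the controls, was -0.19 in PFBS 2, -0.23 in PFBS a and 0.04 in PFBS b. Among the controls it ran from -0.10 in Control 1 to 0.16 in Control 3, so PFBS b lay within the control range and the other PFBS libraries below it.

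Of the liver genes, transferrin stood lower in PFBS. The gene tfa, which encodes the iron carrier of plasma, had 944, 912 and 985 CPM in Control 1, 2 and 3 and 800, 706 and 738 CPM in PFBS 2, a and b. All PFBS libraries were below all controls, and the log2 fold change was -0.34 (95% CI -0.56 to -0.12), not called by edgeR (adjusted p 0.999). Of 26 tested liver plasma protein genes no other had an unadjusted p under 0.05. The fibrinogen gene fgb had a log2 fold change of 0.04 (95% CI -0.13 to 0.20), the protease inhibitor gene serpina1 0.20 (95% CI -0.14 to 0.54) and the list a median of 0.03.

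**Figure D2:**
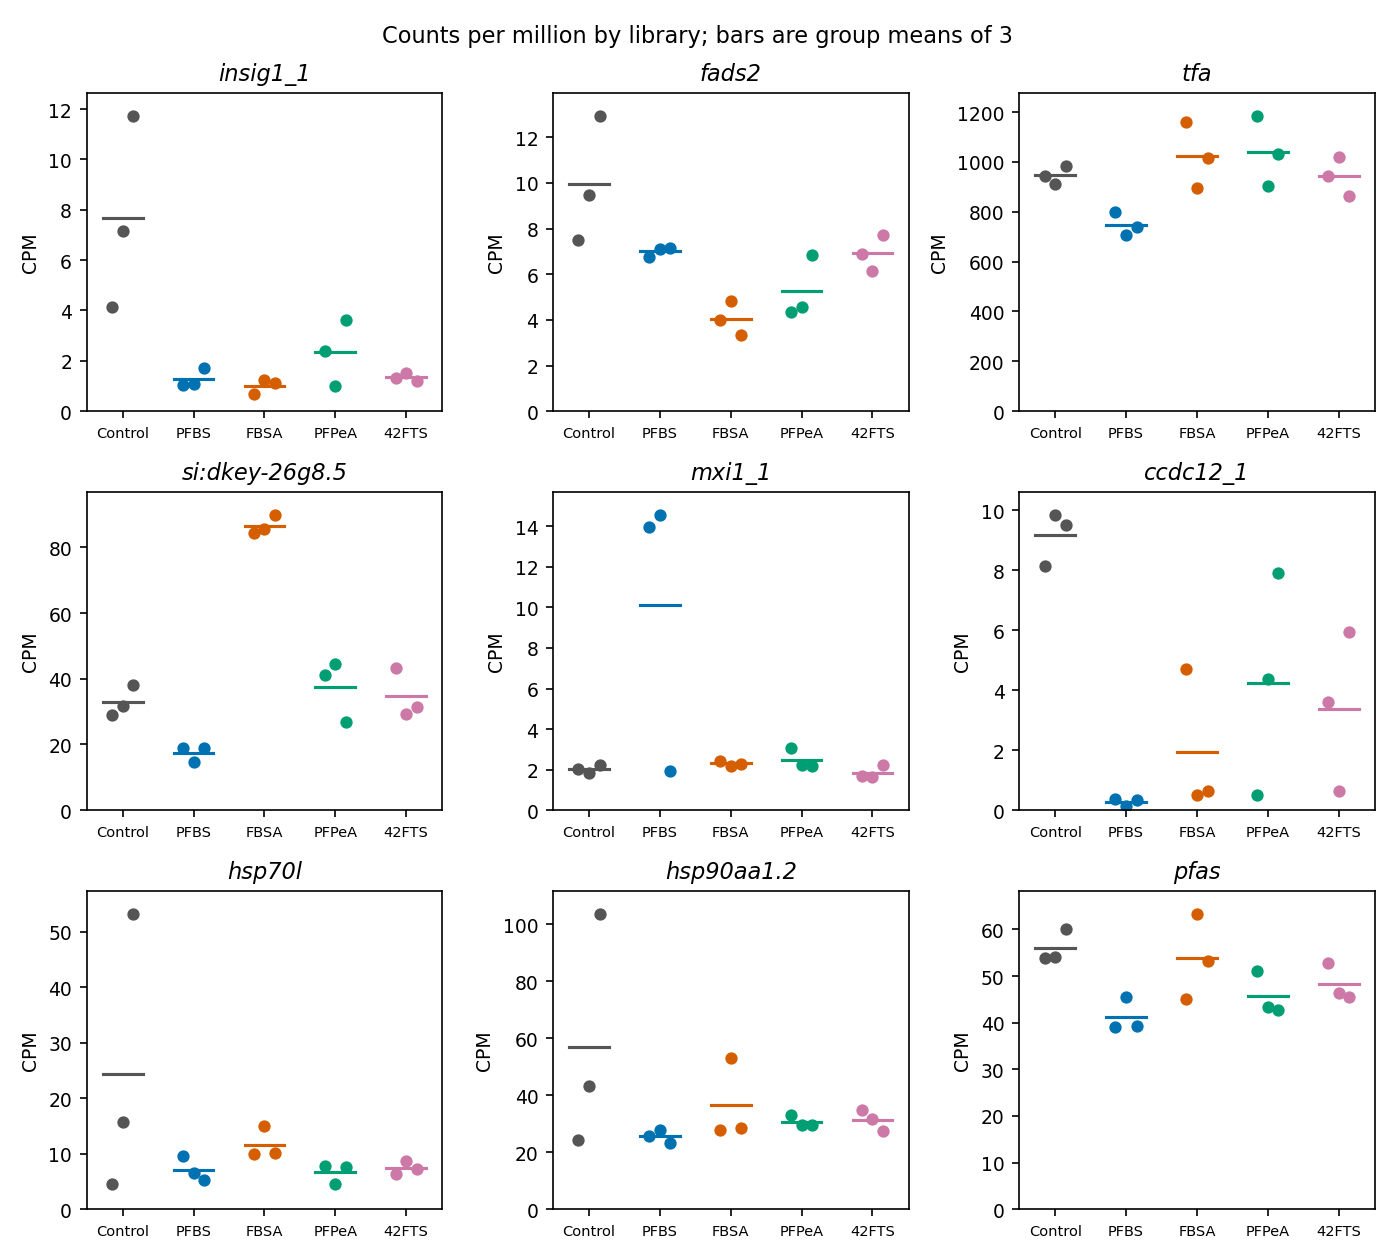
Level in CPM (vertical axis, from 0) of 9 genes in each library of the 5 groups; points are libraries and bars are group means of 3. PFBS lies below every control library in insig1_1, fads2, tfa, si:dkey-26g8.5, ccdc12_1 and pfas, while Control 3 is the highest library for hsp70l and hsp90aa1.2 and PFBS b lies with the controls in mxi1_1.

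The naming rule took the 12 genes with the smallest unadjusted p in each direction, although none was called. Among the lower genes, pfas, which encodes an enzyme of purine synthesis, had 53.8, 54.0 and 60.1 CPM in Control 1, 2 and 3. It had 39.0, 45.5 and 39.4 CPM in PFBS 2, a and b. The groups did not overlap and the log2 fold change was -0.44 (95% CI -0.68 to -0.20). The gene eif4ea, for a translation factor that binds the messenger RNA cap, had 12.02, 11.0 and 13.01 CPM in the controls and 9.01, 9.49 and 8.48 CPM in PFBS (log2 fold change -0.42, 95% CI -0.63 to -0.20). The gene dnajc5gb, of the cysteine string protein family that guards secretory vesicles, had 3.03, 4.66 and 2.85 CPM in the controls and 1.14, 1.32 and 1.92 CPM in PFBS. Its log2 fold change was -1.27 (95% CI -1.80 to -0.73), and DESeq2 called it with an adjusted p of 0.0199. The neuronal membrane glycoprotein gene gpm6ba (-1.09), the G protein regulator rgs7a (-0.79), the lectin gene clec3bb (-0.74) and the nuclear zinc finger gene ciz1a (-0.56) were also without overlap, as were nol4la (-0.98) and shda (-0.78), all as log2 fold changes. The homeobox gene hoxb6b was the exception, since Control 2 at 0.427 CPM lay among the PFBS libraries at 0.254 to 0.510 CPM while Control 1 and 3 had 2.85 and 4.42 CPM.

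Among the higher genes, the connexin gene cx43, which forms gap junction channels, had 94.96, 98.8 and 99.96 CPM in Control 1, 2 and 3 and 110, 112 and 116 CPM in PFBS 2, a and b. The groups did not overlap, and with levels this even the log2 fold change of 0.20 had a 95% CI of 0.09 to 0.32. Set against the same controls, PFPeA had 101 to 115 CPM and 42FTS 101 to 108 CPM of cx43, also above every control library. FBSA had 91.8 to 97.7 CPM and overlapped with the controls. The gene gpr161, for a ciliary receptor that restrains hedgehog signalling, had 13.9, 13.7 and 13.9 CPM in the controls and 17.0, 16.9 and 17.1 CPM in PFBS (log2 fold change 0.30, 95% CI 0.11 to 0.48). Each group was nearly constant, and the adjusted p by edgeR was 0.999. The gene ttc32 had 2.33, 2.71 and 2.69 CPM in the controls and 4.73, 3.87 and 3.93 CPM in PFBS (log2 fold change 0.70, 95% CI 0.35 to 1.05). The higher set also held the histone processing gene lsm11 (0.65), the mitochondrial import gene timm22 (0.39), arid3c (0.35), the adaptor subunit gene ap3m1 (0.29) and bzw2 (0.21), as log2 fold changes. Their PFBS libraries all lay above the controls.

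For some of these genes reads were divided with suffixed entries of the same symbol. The chemokine gene cxcl14 had a log2 fold change of -0.44 (95% CI -0.67 to -0.21) but held 54.4% of its symbol's reads, and with its copies the change was -0.02. The clock repressor gene cry1ba had 0.581, 0.884 and 0.602 CPM in the controls and 3.27, 1.32 and 2.37 CPM in PFBS, a log2 fold change of 1.74. It held 16.7% of its symbol's reads, and with its copies the change was 0.05. The change of usf1l moved from 0.77 to 0.16, that of dgcr8, a gene of microRNA processing, from 0.57 to 0.31, and that of magoh, a gene of the exon junction complex, from -2.51 to -0.66 when copies were added. With their copies, dnajc5gb had -0.99 (95% CI -1.48 to -0.50) and rgs7a -0.57, smaller changes than alone. With theirs, eif4ea had -0.37 and gpm6ba -1.10.

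**Figure D3:**
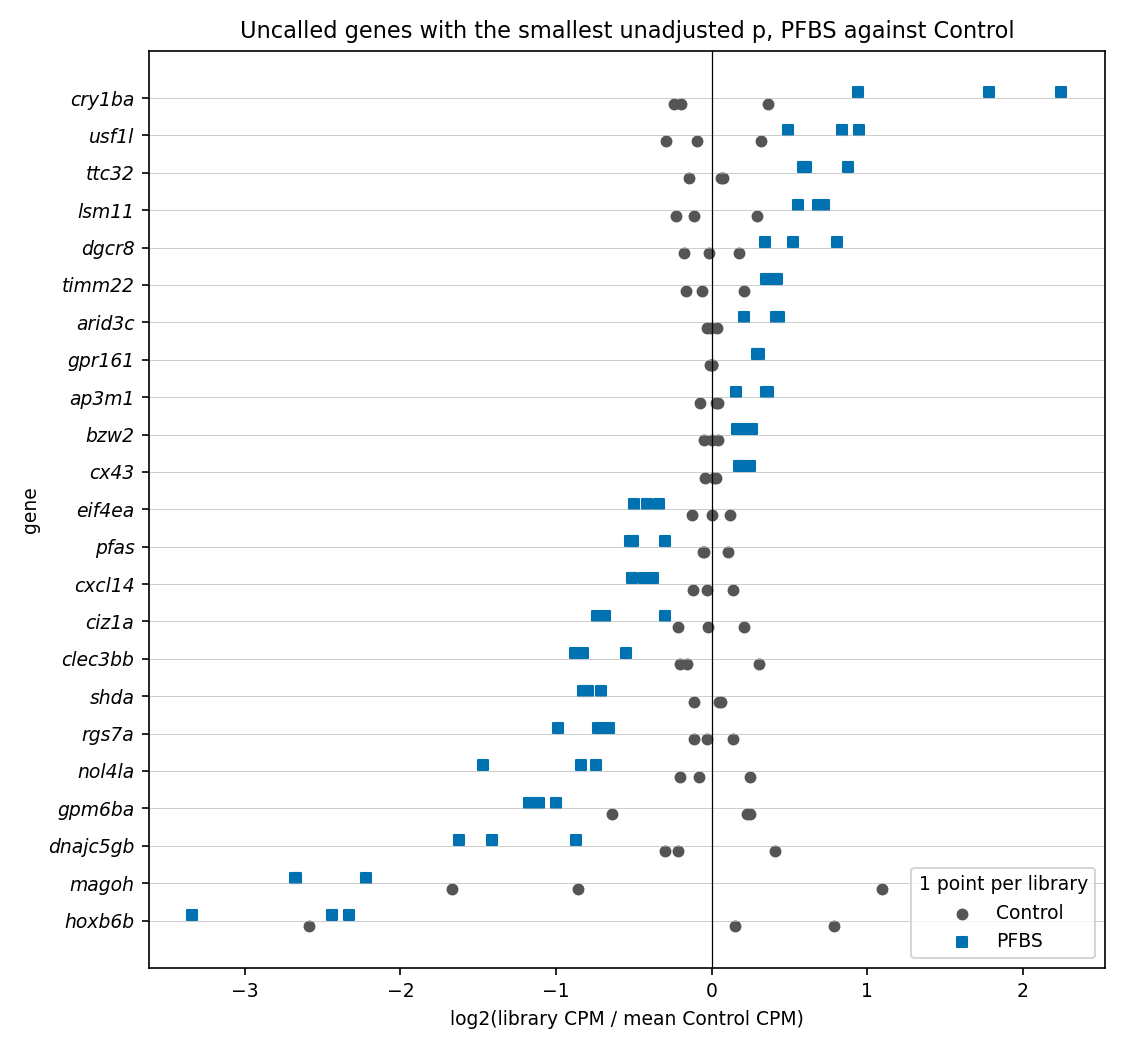
Level of the uncalled genes with the smallest unadjusted p in each control library (grey circles) and each PFBS library (blue squares), as log2 of library CPM over the mean control CPM (horizontal axis), 1 gene per line. The PFBS libraries lie to 1 side of all controls in each gene except hoxb6b, where Control 2 falls among them.

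DESeq2 called 6 entries, 5 lower and 1 higher, and in part of them single libraries or copies held the difference. The entry ccdc12_1 had 8.14, 9.84 and 9.51 CPM in Control 1, 2 and 3 and 0.381, 0.126 and 0.330 CPM in PFBS 2, a and b. That is a log2 fold change of -5.02 (95% CI -7.78 to -2.25). It was not called in the fit of all libraries (edgeR adjusted p 0.999) but was in an edgeR fit of the PFBS and control libraries alone (adjusted p 0.0012). With the copies of ccdc12 added, PFBS b stood at 3.15 CPM and the log2 fold change was -2.89 (95% CI -5.75 to -0.03). Its level also varied within the groups of the other compounds, from 0.501 to 4.70 CPM in FBSA and from 0.494 to 7.91 CPM in PFPeA. The entry mxi1_1 was 14.0 and 14.6 CPM in PFBS 2 and PFBS a but 1.92 CPM in PFBS b, beside 1.83 to 2.21 CPM in the controls. The entry acp5a_1 had 3.64, 13.7 and 14.8 CPM in the controls and 1.079, 1.63 and 0.959 CPM in PFBS, without overlap. It had 2.03 to 3.07 CPM in FBSA, 1.36 to 2.29 CPM in PFPeA and 1.96, 1.85 and 10.4 CPM in 42FTS. Except for 42FTS 3, these libraries also lay below every control.

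The remaining DESeq2 call was a member of a gene cluster related to cathepsin L, a lysosomal protease, and was singled out after its values were seen. The gene si:dkey-26g8.5 had 29.1, 31.6 and 38.0 CPM in Control 1, 2 and 3 and 18.8, 14.8 and 18.9 CPM in PFBS 2, a and b. All PFBS libraries were below all controls, with a log2 fold change of -0.91 (95% CI -1.32 to -0.49), an adjusted p of 0.999 by edgeR and 0.00616 by DESeq2. In FBSA it had 84.3, 85.5 and 89.9 CPM, and FBSA exceeded PFBS by 2.30 in log2 (95% CI 1.88 to 2.73). Several of its neighbours on chromosome 12 in the RefSeq annotation had overlapping PFBS and control libraries. Among them zgc:174153 had a log2 fold change of -0.30 (95% CI -0.63 to 0.02), si:dkey-269i1.4 -0.19 (95% CI -0.73 to 0.35), zgc:174855 -0.17 (95% CI -0.82 to 0.49) and MGC174155 -0.08 (95% CI -0.76 to 0.61). The sequences of these neighbours were not compared here, and how reads were divided among them was not tested.

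Lipid pathways that fluorinated acids touch in mammals had medians near 0. Of 40 tested genes of PPAR receptors and fatty acid oxidation 0 were called, and the intervals of 37 lay within 2-fold. The receptor gene pparaa had a log2 fold change of 0.07 (95% CI -0.21 to 0.36), the carnitine transferase gene cpt1b -0.03 (95% CI -0.42 to 0.36) and the lipase inhibitor gene angptl4 -0.05 (95% CI -0.38 to 0.29). The hormone gene fgf21 was the member at an unadjusted p under 0.05, at 0.122, 0.152 and 0.161 CPM in the controls and 0.444, 0.189 and 0.5995 CPM in PFBS. The groups did not overlap, but all 6 libraries were under 1 CPM. The fgf21 log2 fold change moved from 1.49 to 1.11 without PFBS b. Set against the same controls, FBSA had 0.281 to 0.381 CPM and PFPeA 0.443 to 0.525 CPM, also above every control library. In 42FTS fgf21 had 0.092 to 0.401 CPM, which overlapped with the controls. Of 11 fatty acid binding protein genes 0 had an unadjusted p under 0.05, and the heart form fabp3 had 431 to 449 CPM in the controls and 428 to 462 CPM in PFBS. The liver form fabp10a was near 1 CPM in all 6 libraries, with a 95% CI of -1.19 to 0.90 that reached 2-fold on the lower side.

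The yolk and liver lipoprotein genes were abundant and close between groups. The gene apobb.1, for the core protein of lipoproteins, had 4621, 5174 and 4954 CPM in the controls and 4587, 4825 and 3882 CPM in PFBS 2, a and b. PFBS b was the lowest library, and the log2 fold change was -0.15 (95% CI -0.30 to 0.00). The apolipoprotein gene apoeb had a log2 fold change of 0.02 (95% CI -0.25 to 0.29). Over 20 tested members the median was 0.04, and the 1 member at an unadjusted p under 0.05 was apoa4a (-0.45, 95% CI -0.84 to -0.07), with overlapping libraries.

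Genes of chemical defence and hormone axes gave no call either. Among 27 genes of xenobiotic metabolism, the aryl hydrocarbon receptor gene ahr2 had 70.25 to 76.1 CPM in the controls and 68.5 to 72.5 CPM in PFBS, and its target cyp1a had 4.50 to 5.35 CPM and 4.85 to 5.44 CPM. Both overlapped, and the cyp1a interval, -0.59 to 0.59, lay within 2-fold. The member at an unadjusted p under 0.05 was the glucuronosyl transferase gene ugt1a7 (0.77, 95% CI 0.09 to 1.45), with overlapping libraries. The NRF2 response to oxidative stress had 31 tested genes, of which 0 reached that level. There the glutathione synthesis gene gclc had a log2 fold change of -0.08 (95% CI -0.21 to 0.05) and the heme oxygenase gene hmox1a -0.02 (95% CI -0.44 to 0.40). Of 21 thyroid axis genes 0 reached it and 0 were without overlap, with the receptor gene thraa at -0.08 (95% CI -0.41 to 0.24) and the deiodinase gene dio3b at 0.14 (95% CI -0.29 to 0.57). Of 27 organic anion transporters and efflux pumps 0 reached it, and the kidney transporter gene slc22a6l had a log2 fold change of 0.15 (95% CI -0.17 to 0.48).

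The heat shock list held lower values that rested on Control 3. The chaperone gene hsp70l had 4.50, 15.6 and 53.2 CPM in Control 1, 2 and 3 and 9.52, 6.44 and 5.31 CPM in PFBS 2, a and b. Control 1 lay below all PFBS libraries and Control 3 far above them, so the groups overlapped. The log2 fold change was -1.78 (95% CI -3.26 to -0.30) and -0.51 without Control 3. The chaperone gene hsp90aa1.2 had 24.4, 43.0 and 103 CPM in the controls and 25.5, 27.8 and 23.2 CPM in PFBS, and its change moved from -1.15 to -0.40. Of 33 tested members, 6 were lower at an unadjusted p under 0.05 with all libraries and 0 without Control 3. The small heat shock genes hspb2 (2.12) and hspb8 (1.35) were higher at that level with all libraries. Without Control 3 their log2 fold changes were 2.09 and 1.4002, but 0 members were then higher at that level. The groups overlapped for hspb8, where PFBS a at 1.19 CPM lay within the control range. Its log2 fold change was 1.02 without PFBS b. The gene hspb2 had 3.84 CPM in PFBS 2 and under 1 CPM in the other 5 libraries, and its log2 fold change was 0.996 without PFBS 2. The constitutive form hspa8 had 385 to 399 CPM in the controls and 330 to 368 CPM in PFBS, without overlap and with a log2 fold change of -0.16 (95% CI -0.43 to 0.12). Of 37 tested endoplasmic reticulum and amino acid stress genes 0 had an unadjusted p under 0.05. All PFBS libraries lay above all controls in 1 and below them in 2. The regulator gene atf4a had 434 to 440 CPM in the controls and 461 to 489 CPM in PFBS, without overlap (0.12, 95% CI -0.01 to 0.25). The chaperone gene hspa5 had 251 to 270 CPM and 180 to 250 CPM, also without overlap (-0.20, 95% CI -0.46 to 0.07). Its log2 fold change was -0.06 without PFBS b. The atf4a target asns was at -0.03 (95% CI -0.30 to 0.25).

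Nuclear genes of oxidative phosphorylation leaned to higher values by a small amount. Of 60 tested members 0 were called, 7 were higher and 1 lower at an unadjusted p under 0.05, and 11 (18.3%) had all PFBS libraries above all controls or below them, against 9.31% of all genes tested. All 11 were higher. With 1 library left out, the 7 higher members became 3 without Control 2, Control 3 or PFBS 2, 4 without Control 1, 5 without PFBS a and 9 without PFBS b, and the median ranged from 0.03 to 0.10. The complex I gene ndufa6 had 42.6, 37.9 and 37.3 CPM in the controls and 44.9, 47.5 and 45.8 CPM in PFBS 2, a and b, without overlap (log2 fold change 0.23, 95% CI 0.08 to 0.38). The complex II gene sdhb had 110, 113 and 107 CPM in the controls and 125, 119 and 115 CPM in PFBS, also without overlap (0.12, 95% CI 0.00 to 0.25). The complex I core gene ndufs1, in contrast, had a log2 fold change of -0.02 (95% CI -0.13 to 0.10). The list's median was 0.06, and against the same controls it was 0.05 in PFPeA, -0.03 in 42FTS and -0.10 in FBSA. The members sdhc (2.95), ndufa1 (2.48), ndufb9 (2.34) and ndufb4 (-1.86) had log2 fold changes beyond 2-fold. They share their symbols with suffixed entries, so their reads may be divided among copies. Single libraries set part of these values. The gene ndufb4 had 2.88, 3.17 and 32.7 CPM in the controls, and without Control 3 its log2 fold change turned to 0.23. That of ndufa1 was 1.38 without PFBS b, which had 36.7 CPM.

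Part of the neuron genes showed the same kind of small separation. Over the neuron list the median log2 fold change was 0.06 in PFBS. Against the same controls it was 0.04 in PFPeA, 0.00 in 42FTS and -0.30 in FBSA. The mean log2 level of the list, taken relative to the controls, was 0.05 in Control 1 and 0.02 in PFBS a, so the groups overlapped in it. Of its members, 2 were higher at an unadjusted p under 0.05 with all libraries. That count was 4 without Control 1 and 0 without Control 2, where 1 was lower. Of 45 tested members 9 (20%) had all PFBS libraries above all controls, against 4.95% of all genes tested, 0 had them below, and 0 were called. The synaptic gene snap25a had 154, 152 and 155 CPM in the controls and 160, 157 and 156 CPM in PFBS, a log2 fold change of 0.04 (95% CI -0.05 to 0.12). The neurexin gene nrxn1a had a change of 0.15 (95% CI 0.01 to 0.29) and the neurofilament gene nefmb 0.21 (95% CI 0.03 to 0.39), the members at an unadjusted p under 0.05. The pan-neuronal gene elavl3 had 1088 to 1095 CPM in the controls and 1059 to 1125 CPM in PFBS and thus overlapped (0.00, 95% CI -0.09 to 0.09). The neural progenitor gene sox2 (-0.03, 95% CI -0.17 to 0.11) and the Notch ligand gene dla (0.02, 95% CI -0.16 to 0.21) also overlapped. The Notch ligand gene dlc did not, at 12.3, 15.2 and 16.7 CPM in the controls and 10.25, 10.6 and 11.7 CPM in PFBS (-0.44, 95% CI -0.76 to -0.12).

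Skeletal muscle genes had the median of 0.09 over 66 tested members, with 9 above all controls (13.6%, all genes 4.95%) and 1 below (1.52%, all genes 4.36%). Against the same controls the list's median was 0.05 in PFPeA, 0.00 in 42FTS and -0.03 in FBSA. The mean log2 level of the list overlapped between PFBS and the control, at 0.04 in Control 1 and 0.03 in PFBS 2. At an unadjusted p under 0.05, 2 members were higher with all libraries, 6 without Control 1 and 0 without Control 2. The calcium-binding gene pvalb1 had 5315, 5635 and 5690 CPM in the controls and 5955, 6177 and 5927 CPM in PFBS 2, a and b, without overlap (log2 fold change 0.12, 95% CI -0.05 to 0.29). The lower member was the muscle determination gene myod1, at 20.3, 20.5 and 22.9 CPM in the controls and 20.05, 19.9 and 15.9 CPM in PFBS (-0.19, 95% CI -0.41 to 0.04). The actin gene acta1b overlapped, at 7503 to 7957 CPM and 6709 to 8951 CPM.

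Among other cell types, several genes were close between groups and some leaned lower in PFBS. The heart genes myl7 (0.09, 95% CI -0.04 to 0.22) and nppa (0.10, 95% CI -0.19 to 0.39), the lens gene crybb1 (0.07, 95% CI -0.06 to 0.21), the endothelial gene fli1a (0.07, 95% CI -0.04 to 0.18), the skin gene cldne (0.00, 95% CI -0.25 to 0.25) and the ionocyte gene atp1b1b (-0.03, 95% CI -0.17 to 0.11) all had intervals within 2-fold. The pigment genes dct (-0.04, 95% CI -0.17 to 0.09) and gch2 (-0.06, 95% CI -0.20 to 0.09) did so too. The neutrophil gene mpx had 31.2, 40.1 and 36.5 CPM in the controls and 32.1, 31.3 and 26.5 CPM in PFBS, with overlap (-0.26, 95% CI -0.51 to -0.02). The hatching enzyme gene he1a had 640, 705 and 677 CPM in the controls and 540, 657 and 504 CPM in PFBS, and PFBS a lay within the control range (-0.25, 95% CI -0.45 to -0.04). Of 28 red cell genes, 4 had all PFBS libraries below all controls (14.3%, all genes 4.36%), 0 had them above, and 2 were lower at an unadjusted p under 0.05. Without PFBS b, 0 were lower at that level and 1 was higher, while 6 were lower without PFBS 2. The list's mean log2 level, relative to the controls, was 0.13 in PFBS 2, -0.10 in PFBS a and -0.34 in PFBS b. Among the controls it ran from -0.09 to 0.07. The embryonic globin gene hbbe3 had 127, 132 and 121 CPM in the controls and 96.9, 95.3 and 70.4 CPM in PFBS 2, a and b, without overlap (-0.53, 95% CI -0.998 to -0.07). Set against the same controls, FBSA had 88.6 to 111 CPM and PFPeA 56.5 to 99.5 CPM of hbbe3, also below every control library. In 42FTS it had 78.9 to 125 CPM, with overlap. The globin gene hbbe1.1 overlapped, at 664 to 1095 CPM and 725 to 1312 CPM.

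Over all 41 lists, 1212 genes were tested and 0 were called. In 973 of them the 95% CI lay within 2-fold, 31 were higher and 35 lower at an unadjusted p under 0.05, and 10.3% were without overlap between the groups, against 9.31% of all genes tested. The share at an unadjusted p under 0.05 was 5.45%, against 3.87% of all genes tested. The median was 0.02 (all genes 0.00). In the list of 25 genes with large changes in FBSA, which was chosen on these samples, 5 had an unadjusted p under 0.05 in PFBS, all lower, and 40.0% were without overlap. Of the 25, 13 were called higher and 12 lower in FBSA against the same controls. Unusual control values favour a difference in any group set against them, so these PFBS counts are a description with no test. The list's median log2 fold change was 0.09 in PFBS and 1.38 in FBSA.

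**Figure D4:**
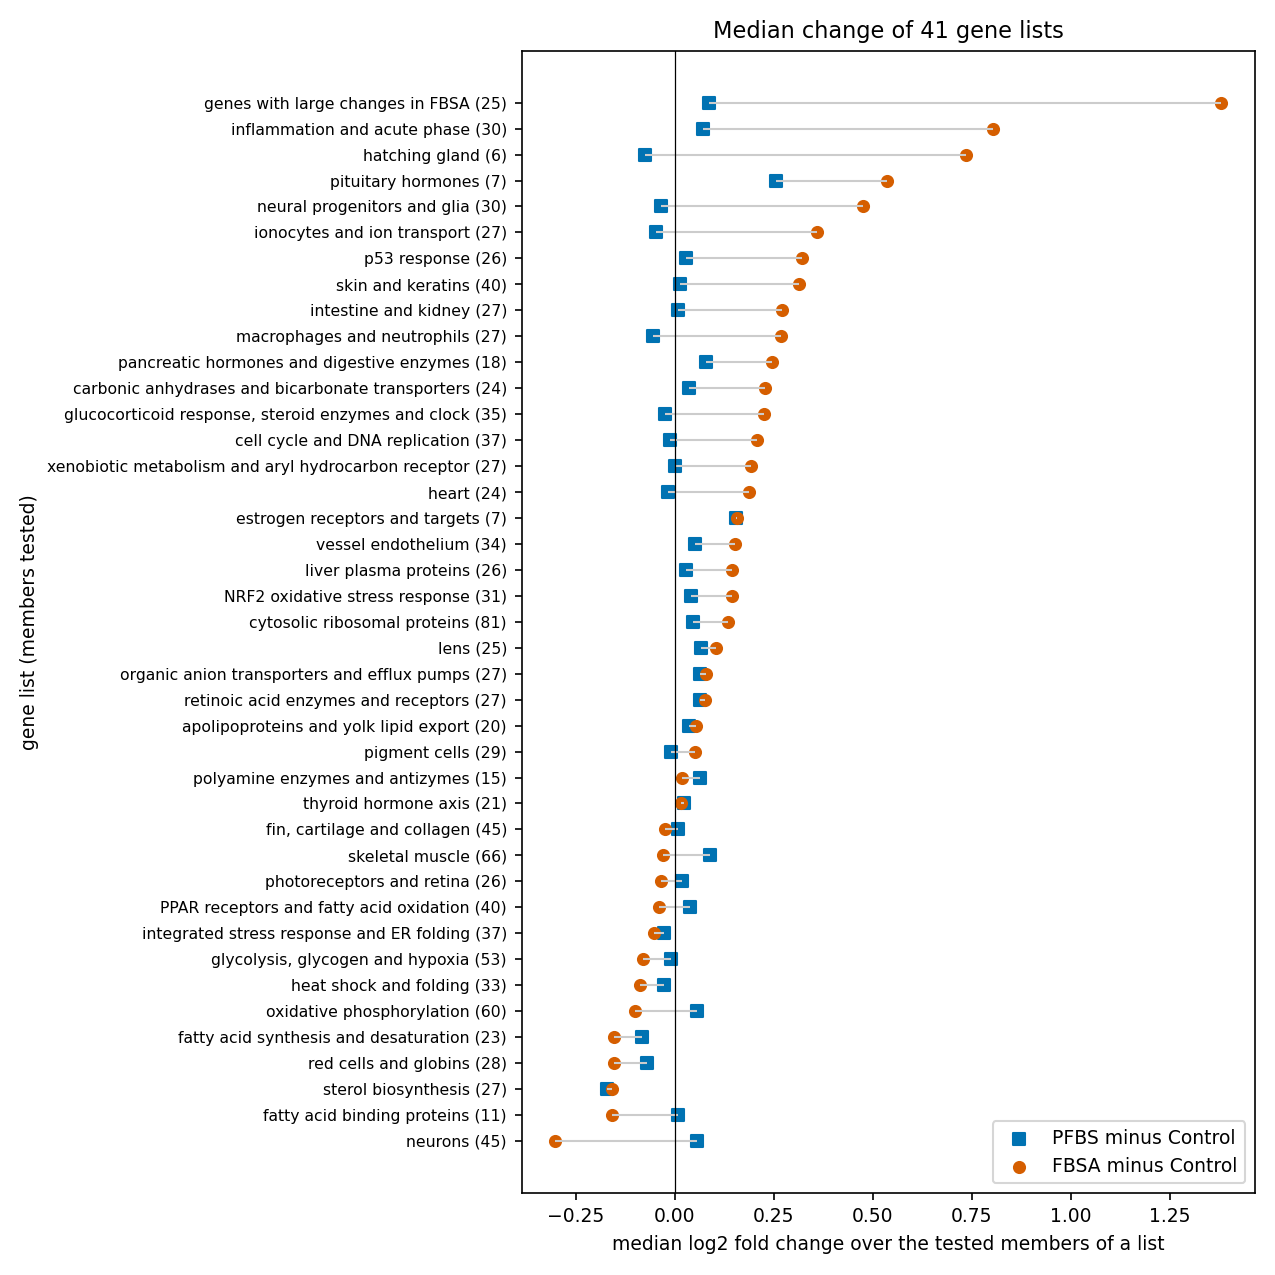
Median log2 fold change over the tested members of each gene list (number tested in brackets), for PFBS minus Control (blue squares) and FBSA minus Control (orange circles), joined by a line; both compounds share the 3 controls. The PFBS medians lie between -0.17 for sterol biosynthesis and 0.26 for pituitary hormones, and the FBSA medians between -0.30 for neurons and 1.38 for genes with large changes in FBSA.

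Against the other compounds at the same dose and hours, PFBS differed from its sulfonamide. FBSA carries a sulfonamide in place of the sulfonic acid on the same fluorinated chain. Between them 2423 of 23874 genes were called by edgeR (10.1%), 1234 higher in FBSA (5.17%) and 1189 lower (4.98%). With p-values adjusted over the 3 pairs of compounds that include PFBS, 1290 were called. Under the usual adjustment the 2423 calls became 1159 without FBSA 2, 1443 without PFBS a, 1508 without PFBS 2 and 934 in a fit of these groups alone.

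Genes with large differences included transporters of small metabolites. The monocarboxylate carrier gene slc16a9b had 27.6, 21.6 and 23.4 CPM in the controls and 19.5, 25.4 and 19.5 CPM in PFBS 2, a and b. In FBSA it had 115, 138 and 101 CPM, above every other library of these groups, and FBSA exceeded PFBS by 2.46 in log2 (95% CI 2.16 to 2.76). The sodium pump subunit gene atp1b1b (0.99, 95% CI 0.86 to 1.13) and the carbonic anhydrase gene ca2 (0.85, 95% CI 0.66 to 1.04) were higher in FBSA than in PFBS, as was the polyamine synthesis gene odc1 (1.05, 95% CI 0.80 to 1.29). All 4 were called by edgeR.

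Tissue genes differed in both directions. The gene lists were written with FBSA results of this series known, so counts of their members called against PFBS are a description with no test. Of all genes tested, 5.17% were called higher in FBSA than in PFBS and 4.98% lower. The hatching enzyme gene he1a had 1258, 1322 and 1090 CPM in FBSA, against 567 ± 80.1 CPM (SD, n = 3) in PFBS, and 4 of 6 hatching gland genes were called higher in FBSA. The skin annexin gene anxa1b had 171, 163 and 162 CPM in FBSA and 57.3 ± 6.63 CPM in PFBS, and 16 of 40 skin genes were called higher and 3 lower. The natriuretic peptide gene nppa was higher by 1.28 (95% CI 0.99 to 1.57) and the itaconate synthesis gene irg1l by 3.26 (95% CI 2.21 to 4.31). Cell cycle genes were called higher in 19 of 37 and lower in 0, including the replication clamp gene pcna (0.26, 95% CI 0.15 to 0.36). Neural progenitor and glial genes were called higher in 15 of 30 and lower in 2.

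Lower in FBSA than in PFBS were 24 of 45 neuron genes, with 0 higher (all genes 4.98% lower and 5.17% higher). This list too was written with FBSA results known. The RNA-binding gene elavl4 had 409, 407 and 414 CPM in the controls, 411, 424 and 423 CPM in PFBS and 285, 221 and 290 CPM in FBSA. PFBS thus lay beside the controls and FBSA below both, at -0.66 against PFBS (95% CI -0.82 to -0.50). The lactate dehydrogenase gene ldha (-0.997, 95% CI -1.24 to -0.76) and the muscle genes igfn1.3 (-3.75, 95% CI -4.76 to -2.74), ampd1 (-1.81, 95% CI -2.44 to -1.19) and acta1b (-0.84, 95% CI -1.11 to -0.58) were also called lower. The desaturase gene fads2, below the controls in both groups, was lower in FBSA than in PFBS by a further -0.79 (95% CI -1.24 to -0.33, edgeR adjusted p 0.0295).

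**Figure D5:**
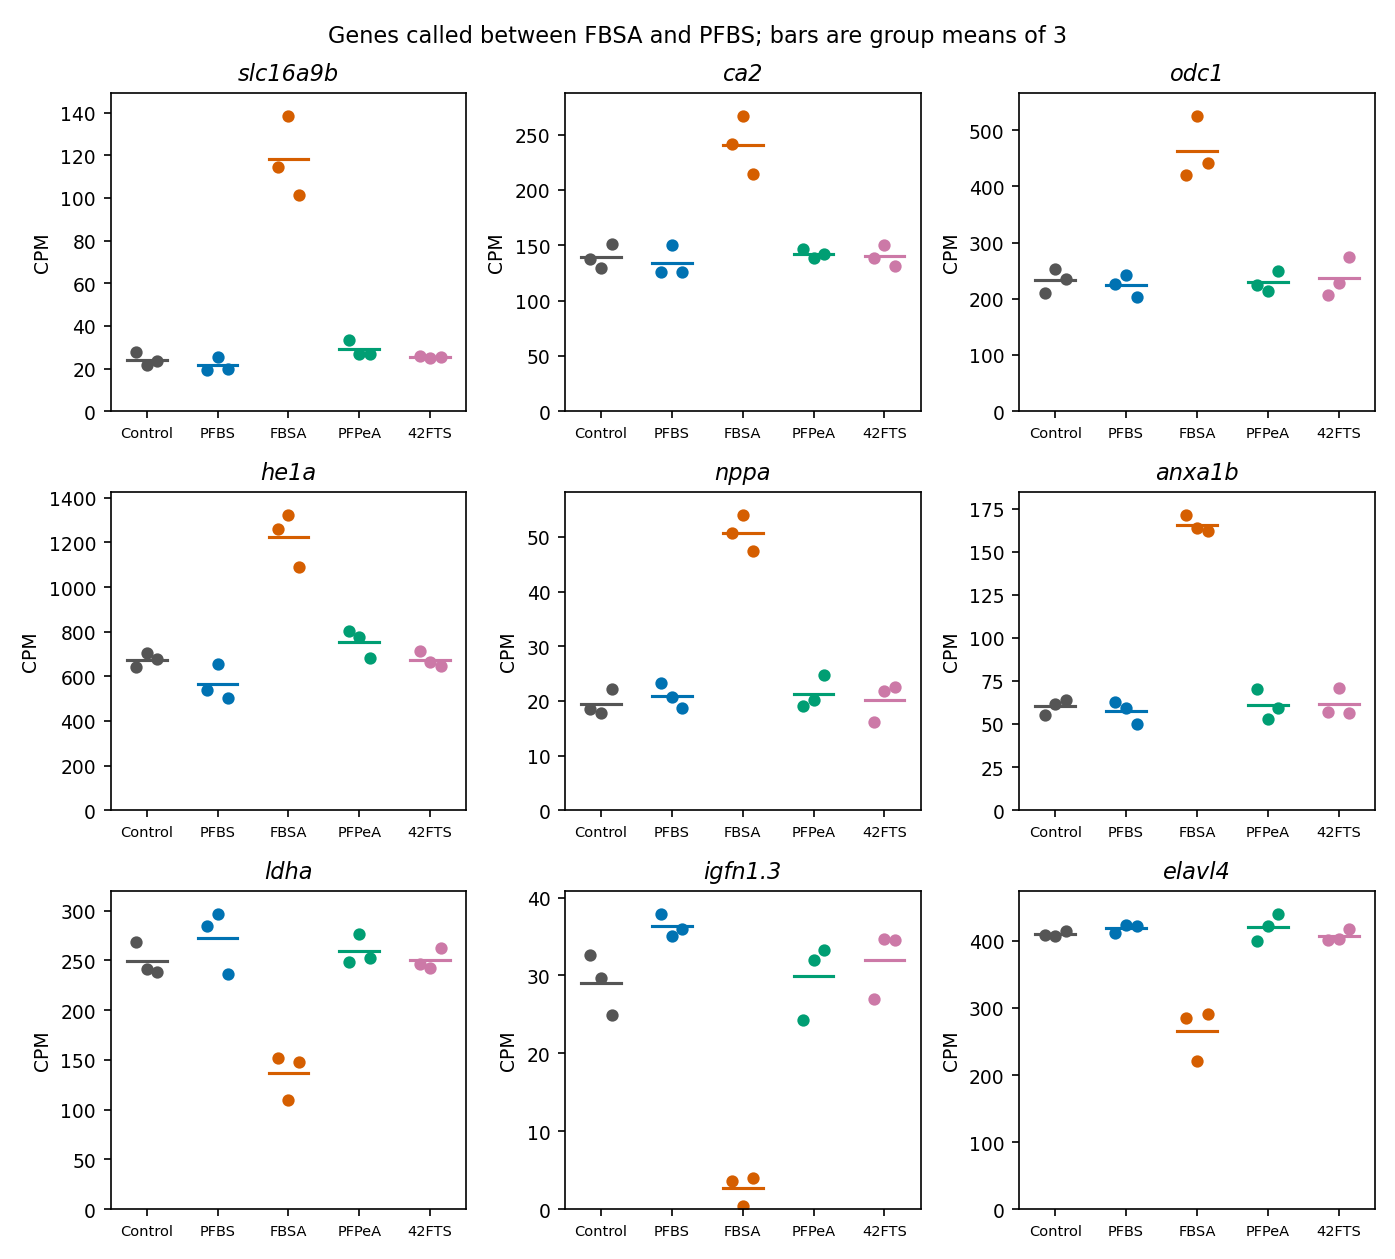
Level in CPM (vertical axis, from 0) of 9 genes called between FBSA and PFBS, in each library of the 5 groups; points are libraries and bars are group means of 3. PFBS overlaps the controls in each gene except igfn1.3, where it is higher, while FBSA lies above both in slc16a9b, ca2, odc1, he1a, nppa and anxa1b and below both in ldha, igfn1.3 and elavl4.

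The genes that FBSA moved against the control can be set beside their PFBS values, with the reserve that both share the controls. These genes were chosen because their FBSA change passed the test. That choice favours calls between the compounds and FBSA values outside the PFBS interval, so the counts are a description with no test. The 1260 genes called higher in FBSA had a median log2 fold change of 0.54 there and 0.04 in PFBS, and 899 of them (71.3%) were called in FBSA against PFBS. For 1156 of the 1260 the 95% CI of the PFBS change left out the FBSA value. The 1014 genes called lower had medians of -0.40 in FBSA and -0.01 in PFBS, 757 (74.7%) were called between the compounds, and the PFBS interval left out the FBSA value in 945.

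Genes described above for their PFBS values can also be set beside FBSA. They were chosen for standing apart from the controls in these PFBS libraries, which favours a difference from any other group, so their values are a description with no test. The gene tfa was higher in FBSA than in PFBS by 0.45 (95% CI 0.23 to 0.67), with 1159, 897 and 1017 CPM in FBSA beside 912 to 985 CPM in the controls. The gene eif4ea was higher by 0.35 (95% CI 0.14 to 0.57) and pfas by 0.38 (95% CI 0.14 to 0.62), while gpr161 differed by -0.48 (95% CI -0.66 to -0.29). The gene insig1_1 differed by -0.33 (95% CI -1.29 to 0.63).

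PFPeA, which carries a carboxylic acid on the same chain, was not told apart from PFBS by the test. Of 23874 genes 0 were called by edgeR (0%), the smallest adjusted p was 0.335 and 1154 genes had an unadjusted p under 0.05. When p-values were adjusted over the 3 pairs together, 32 genes passed, and DESeq2 called 14. The joint cutoff was loosened by the many small p-values of FBSA against PFBS, where 1290 passed. The 32 are therefore a description and not evidence of a difference for PFPeA. The 95% CI of the difference lay within 2-fold for 68.4% of genes. The gene si:dkey-26g8.5 had 41.3, 44.5 and 26.8 CPM in PFPeA against 18.8, 14.8 and 18.9 CPM in PFBS (1.098, 95% CI 0.68 to 1.51), without overlap. The gene tfa had 1184, 904 and 1032 CPM in PFPeA, above its PFBS libraries (0.48, 95% CI 0.26 to 0.69). Neither was called, and both were chosen for their PFBS values.

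42FTS, a sulfonic acid with an ethyl spacer before it, gave 0 called genes against PFBS by edgeR (0%), with a smallest adjusted p of 0.906 and 1047 genes at an unadjusted p under 0.05. Adjusted over the 3 pairs together 17 passed, under the same cutoff loosened by FBSA against PFBS, so they too are only a description. DESeq2 called 11. The interval lay within 2-fold for 68.7% of genes. The gene si:dkey-26g8.5 was 43.2, 29.3 and 31.5 CPM in 42FTS (0.99 against PFBS, 95% CI 0.57 to 1.402), and dnajc5gb was 3.21, 3.33 and 2.795 CPM (1.09, 95% CI 0.55 to 1.63), both above every PFBS library and neither called. The gene fads2 was 6.87, 6.14 and 7.71 CPM in 42FTS and overlapped with PFBS (-0.02, 95% CI -0.47 to 0.43).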

How the data were processed

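The authors' deposited table held raw read counts per gene. The build GRCz11 and the tools HISAT2, Bowtie2, HTSeq, RSEM and DESeq2 are named, without versions or roles, per the submitters' processing notes. Whether counting used strand is not stated there. Overlapping and antisense genes could therefore share reads. Reads in genes made up 63.9% to 66.4% of each PFBS or control library, and lines that name no gene were dropped. Of 47048 entries 16469 carried a numbered suffix beside an entry of the same stem, so their reads may be split among copies. The authors' deposited table of genes changed by FBSA, 1909 in all, listed for each gene TPM per sample and, for PFBS, a p-value, its Q value (q-value) and a log2 ratio, per the file headers. It was used only where named. Its other 39 columns of values per sample and 15 of averages were not used.

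The counts were tested with edgeR 4.0.16 under R 4.3.3: filterByExpr with default settings (23874 entries kept), trimmed mean of M-values (TMM) scaling, and a robust quasi-likelihood fit over the 15 libraries, with a coefficient for each group. Two-sided F-tests were adjusted by Benjamini-Hochberg over all genes tested, with a threshold of 0.05. Levels are TMM-scaled CPM, and fold changes are log2 with a 95% CI. Depth was 24552649 to 32630731 reads in genes per PFBS or control library. The intervals take in counting error and the spread between pools within all groups of the fit, not in PFBS and the control alone. The procedure was tested on simulated data. Alternatives were DESeq2 1.42.0, limma 3.58.1 voom, other scalings and filters, fits of 2 groups, each library left out, and suffixed entries added to their stems. Replicate pairs within the PFBS and control groups differed beyond counting noise, with a mean chi-square per gene of 11.8 to 18.0, so all libraries were kept.

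Of 1396 symbols in 41 gene lists, 1324 matched by symbol and 39 by a RefSeq synonym, and 1212 were tested. The members and lists were chosen with earlier results of these data known, those for FBSA among them. Named genes were the 12 with the smallest unadjusted p in each direction with a mean of at least 1 CPM, an unsuffixed symbol and no clone name, plus preselected members of each list, the list of genes with large changes in FBSA and the 3 largest called differences per direction for each pair of compounds. A few genes that the rule names are not reported here. Other genes at an unadjusted p under 0.05 or without overlap, and those called by an alternative, were named after their values were seen.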

Additional observations from a re-analysis of the deposited data

Results flagged for a closer look

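A signal for PFBS stood in the authors' deposited table, which the comparisons above do not use. In that table MGC174155, a neighbour of the cathepsin L-related genes, was the only 1 of 1909 listed genes with a PFBS Q under 0.05 (log2 fold change -0.46, p 8.65e-10, Q 1.78e-05). The table held only genes with an FBSA Q under 0.05, and 78 of them had a PFBS p under 0.05. Among the 78 were the stress genes atf4b (log2 ratio 0.18), atf4a (0.11) and hspa5 (-0.22), none with a PFBS Q under 0.05. In the authors' table si:dkey-26g8.5, which DESeq2 called on the counts, had a PFBS log2 ratio of -0.88 and a Q of 0.352. The authors' TPM for MGC174155 were 991, 1059 and 966 in the controls and 811, 691 and 659 in PFBS, without overlap. In the deposited counts the same gene had 19.0, 17.1 and 13.2 CPM in the controls and 18.6, 14.7 and 13.6 CPM in PFBS, with overlap (log2 fold change -0.08, edgeR adjusted p 0.999). Between 15.09% and 15.7% of reads aligned to more than 1 place in 5 of the 6 libraries and 14.3% in Control 3. The part of such reads in the difference between these tables was not tested.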

How the results depend on the processing

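Calls between PFBS and the control depended on the tool more than on scaling or filters. DESeq2 called 6 genes for PFBS against the control, 1 of them a list member (insig1_1), 14 for PFPeA against PFBS, 11 for 42FTS against PFBS, 15 for PFPeA against the control and 12 for 42FTS against the control. An edgeR fit of the 2 groups compared called 1 (ccdc12_1), 934 for FBSA against PFBS and 1 for 42FTS against PFBS. With no filter on low counts PFPeA against the control had 1 call. The cause of these differences was not tested. With 1 library left out, PFBS against the control had 0 to 1 calls: snrpd3_1 without Control 1, hoxb6b without Control 2 and mxi1_1 without PFBS b. FBSA against PFBS had 1159 to 2242, PFPeA against PFBS 0 to 3 and 42FTS against PFBS 0 to 1; the group left with a pair of libraries was assumed to vary like the others. The share of genes with an interval within 2-fold ranged from 63.1% to 64.0% in these fits. Of 2772 values for 200 named genes 0 reversed, 6 passed the threshold under an alternative and 3 moved, and of 574 list medians 11 moved. The counts for named genes do not give how far a fold change shifted, and 0 genes were called for PFBS against the control to begin with. The log2 fold change of cxcl14, for example, went from -0.44 to -0.02 with suffixed entries added to the stem. The uncalled gene ndufb4, named after its values were seen, turned from -1.86 to 0.23 without Control 3. No paired analysis was possible because the header gives replicate 1 to a pair of PFBS columns, so PFBS and the control share only the number 2. Genes under 1 CPM had the widest intervals, with a median distance of 1.25 in log2 from the fitted value to the edge.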

Other observations

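Some further genes of the pancreas and of immunity were chosen after their values were seen. The insulin gene ins had 0.367, 0.335 and 0.161 CPM in Control 1, 2 and 3 and 0.381, 5.60 and 0.480 CPM in PFBS 2, a and b, so PFBS a stood apart. The pancreatic and gut hormone gene sst1.2, of the somatostatin family, had 4.65, 3.72 and 3.97 CPM in the controls and 2.32, 3.36 and 3.36 CPM in PFBS, without overlap (log2 fold change -0.45, 95% CI -0.86 to -0.04). The cytokine gene il1b stayed under 1 CPM, at 0.092, 0.152 and 0.161 CPM in the controls and 0.317, 0.189 and 0.839 CPM in PFBS. The complement gene c3a.3 had 30.8, 26.7 and 12.003 CPM in the controls and 15.9, 14.1 and 6.80 CPM in PFBS, with Control 3 among the PFBS libraries. None of these was called by edgeR.

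For some suffixed entries the difference was not seen in the sum over all entries of the symbol. The entry fam168b_2 had 14.9, 14.6 and 14.5 CPM in the controls and 1.59, 1.76 and 3.84 CPM in PFBS, a log2 fold change of -2.61, while with the copies of fam168b added it was -0.04. The entry znf839_1 had a log2 fold change of -2.06, and znf839 with its copies 0.03. The mitochondrial import gene tomm22, in contrast, had -2.28 both alone and with its copies.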
